A study of Mus musculus with 28 samples.

Results

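Meiotic break peaks that lie at the ends of 2 or more different protein-coding genes were taken from a map of single-stranded DNA in testis of mice whose PRDM9 lacks the KRAB domain (genotype Prdm9 K/K, strain C57BL/6). A peak was a member when its interval came within 1000 bp of the outermost ends of at least 2 such genes in the RefSeq annotation of build GRCm38.p6. The rule held for 1540 of 17731 peaks (8.69%), against 7469 peaks near 1 coding gene, 1738 near ends of noncoding genes only and 6984 with no gene end in that range. Of the members, 1473 touched 2 genes, 66 touched 3 and 1 touched 5, which made 3000 different genes, 149 of them at more than 1 member peak.

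In meiosis of the male germ line, programmed DNA breaks are resected to single strands that recombinases such as DMC1 coat, and single-stranded DNA sequencing (SSDS) of the enriched material reads those strands with their orientation. In mice PRDM9, a zinc finger protein that methylates histone H3, normally directs the breaks to its own binding sites, and in mice without PRDM9 breaks are known to form largely at promoters and other sites with methylated H3 lysine 4. A pair of genes that start back to back share a bidirectional promoter, an arrangement known to be common among housekeeping and DNA repair genes.

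SSDS was available for 1 Prdm9 K/K library, so no spread between animals can be given and all intervals cover counting error only. mRNA values came from testes of 2 Prdm9 KO, 2 Hop2 KO and 1 wild-type library (labelled adult), all C57BL/6. No age is given for the knockouts, the labels do not say which libraries came from separate animals, and no mRNA library of Prdm9 K/K mice was analysed here, so expression is that of other mice than those in which the breaks were mapped. The SSDS file held 9397213 type 1 fragments (the class assigned to single-stranded DNA), of which 2652951 (28.2%) were distinct in position and strand, and 698693 distinct fragments had their midpoint in a peak. Members held 88588 of these, 12.7%, from 8.69% of the peaks.

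The sequence between the start sites is shown for peaks at which 2 coding genes start back to back. The pairs have a gap of 40 to 250 bp that the start-site windows cover, and are either among the peaks with most fragments or the 6 richest such peaks of listed DNA repair, meiotic or piRNA genes. The sequences are plus-strand, 5′ to 3′, from RefSeq promoter windows (GRCm38.p6). The capitals mark matches on either strand to the letters of 3 promoter elements. One is the GC box, GGGCGG, which SP1-type zinc finger proteins are known to bind. Another is the CCAAT box, named by its letters and known to be bound by NF-Y. The third is the core that ETS-family factors are known to bind, spelled CCGGAAG. In the Hmmr and Nudcd2 gap a GC box on the minus strand overlaps a CCAAT box by its last bases.

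Hmmr and Nudcd2, chr11:40733465-40733644, 391 fragments: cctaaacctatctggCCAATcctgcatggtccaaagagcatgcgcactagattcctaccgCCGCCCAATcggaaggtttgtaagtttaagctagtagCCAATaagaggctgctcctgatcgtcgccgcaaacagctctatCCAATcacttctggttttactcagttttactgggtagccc
Srsf7 and Gemin6, chr17:80207370-80207503, 343 fragments: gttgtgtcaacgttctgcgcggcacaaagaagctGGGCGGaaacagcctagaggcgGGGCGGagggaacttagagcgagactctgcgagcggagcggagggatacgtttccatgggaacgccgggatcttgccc
Rpa3 and Umad1, chr6:8259142-8259287, 269 fragments: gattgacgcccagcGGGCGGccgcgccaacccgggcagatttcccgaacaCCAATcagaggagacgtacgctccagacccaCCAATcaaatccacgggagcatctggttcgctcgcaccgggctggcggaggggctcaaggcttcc
Fkbp3 and Fancm, chr12:65073939-65074109, 261 fragments: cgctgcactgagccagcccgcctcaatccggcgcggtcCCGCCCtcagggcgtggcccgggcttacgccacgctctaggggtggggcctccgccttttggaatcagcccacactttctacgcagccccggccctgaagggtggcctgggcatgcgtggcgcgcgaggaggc
Recql and Golt1b, chr6:142387101-142387210, 188 fragments: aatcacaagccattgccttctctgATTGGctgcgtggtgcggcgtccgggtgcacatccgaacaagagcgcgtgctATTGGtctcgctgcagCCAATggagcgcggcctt
Atm and Npat, chr9:53536829-53536888, 156 fragments: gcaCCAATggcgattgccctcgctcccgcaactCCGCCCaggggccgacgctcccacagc
Ndufaf2 and Ercc8, chr13:108158653-108158710, 124 fragments: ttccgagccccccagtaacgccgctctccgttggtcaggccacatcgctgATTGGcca
Xrcc4 and Tmem167, chr13:90089609-90089666, 114 fragments: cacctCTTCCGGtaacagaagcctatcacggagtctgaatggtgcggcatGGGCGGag

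In each of these pairs the first-named gene starts at the left edge and is read to the left, and the second starts at the right edge and is read to the right. The whole intergenic stretch is therefore 58 to 180 bp long, whereas the peaks above it span kilobases. Over a wider set, windows of 300 bp (250 bp before to 50 bp after the start) were available for 1392 member genes, of which 1200 had their 5′ end at the peak. Their median GC content was 61%, and a window held a median of 22 CpG. The windows of 2849 genes at peaks with 1 coding gene had medians of 60.7% and 21 CpG, and all 10583 windows had 54% and 9. A GC box was found in 64.1% of the member windows, 68.6% of the windows at peaks with 1 gene and 40.5% of all windows. An ETS core was found in 25.3% of member windows, against 16.1% and 10.3%, and the TATAAA box in 6.33%, against 8.53% and 16.9%. CCAAT had similar shares in the 3 sets (41.6%, 41.3% and 40.3%), and the NRF1 palindrome occurred in 2.83%, 2.25% and 1.24%. The members of a back-to-back pair share bases between their windows, and a match is a description of letters and not a binding site.

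By the median of each class, members were wider and held more fragments than the other peak classes, though not in every arrangement of genes (below). Their median width was 2232.5 bp (quartiles 1726 and 2817), against 2095 bp at peaks with 1 coding gene, 1707.5 bp at noncoding ends and 1585.5 bp away from ends. Width is not independent of the rule, because a wider interval reaches more gene ends. When distances were instead taken from the peak midpoint, the median width of the members so chosen was 2258 bp, against 1822 bp for the remaining peaks.

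The median number of distinct type 1 fragments per peak was 38 in members (quartiles 18 and 78), 33 at peaks with 1 coding gene, 20 at noncoding ends and 16 away from ends. Per kb of peak the medians were 16.3, 15.2, 11.4 and 9.92. Members thus stood close to peaks with 1 coding gene and apart from the peaks without a coding end. Of the members, 301 (19.5%) were in the top 10% of all peaks by fragments, against 15.4%, 5.35% and 3.45% in the other classes. Within bands of equal width the difference from peaks with 1 coding gene was absent or small: between 2000 and 2500 bp both had a median of 41 fragments, and from 3000 bp the medians were 117 and 112. Peaks away from ends had 35 and 81.5 in those bands. Below 2000 bp, where most peaks away from ends lie, the medians hardly differed: members had 9 and peaks away from ends 9 under 1500 bp, and 21 and 20 from 1500 to under 2000 bp. Peaks of 1 library are not replicates, and no test was made between the classes.

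**Figure D1:**
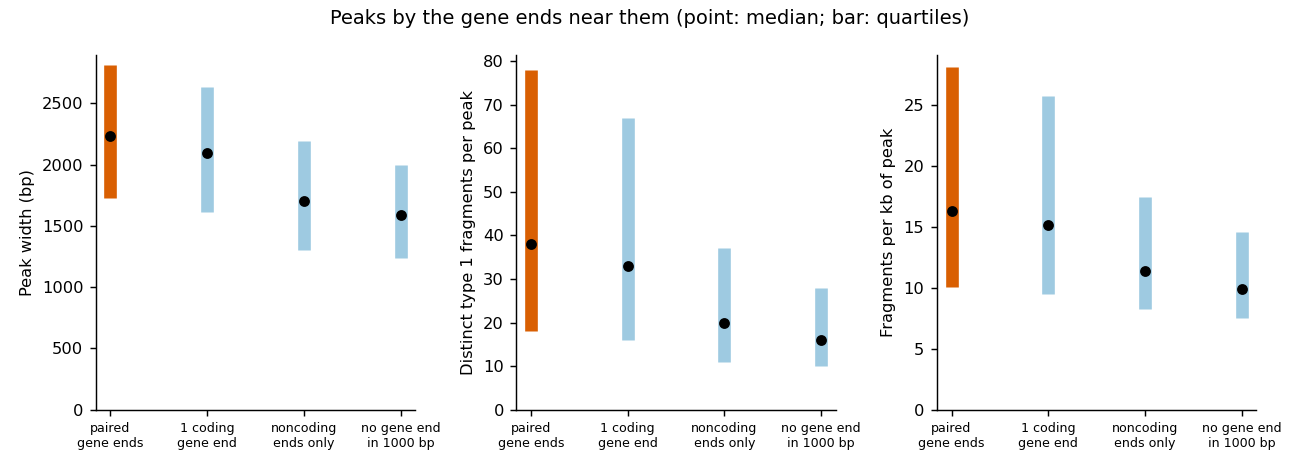
Width in bp (left), distinct type 1 fragments per peak (middle) and fragments per kb (right) for 4 classes of SSDS peaks in 1 Prdm9 K/K testis library. Points are medians and bars run between quartiles over peaks; peaks at paired gene ends have the highest median in each panel, 2232.5 bp, 38 fragments and 16.3 fragments per kb.

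The strands at members were arranged as resection of a break leaves them, with plus-strand fragments on the left and minus-strand fragments on the right. The share of fragments that follow this pattern about the peak midpoint (here break polarity, 50% without a strand pattern) was 78.7% over all member fragments (95% exact binomial interval 78.5 to 79.0). The value was 81.1% at peaks with 1 coding gene, 78.5% at noncoding ends and 79.7% away from ends. Polarity was over 50% in 1503 of 1540 members (97.6%), beside 97.9% of all peaks. The median of minus-strand positions lay 883 bp to the right of that of plus-strand positions in members, against 850, 680 and 650 bp in the other classes.

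**Figure D2:**
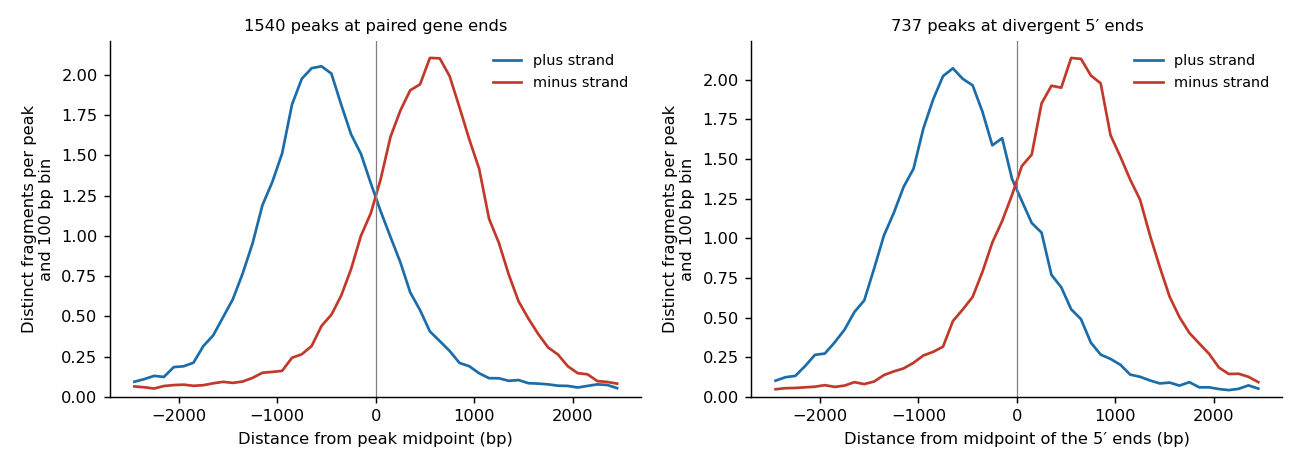
Distinct fragments per peak in 100 bp bins on the plus and the minus strand, about the midpoint of the 1540 member peaks (left) and about the midpoint of the 5′ ends at the 737 peaks with divergent genes (right), in bp along the chromosome. The strands cross near 0 in both panels, with plus-strand fragments to the left and minus-strand fragments to the right.

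Polarity was lowest in the widest members. In 4 width groups of about equal number it was 81.7% at 1067 to 1726 bp, 83.4% at 1727 to 2231 bp, 81.7% at 2234 to 2816 bp and 75.7% at 2820 to 8190 bp. From 3000 bp up, the median polarity per peak was 75.6% in members, 77.5% at peaks with 1 coding gene and 71.4% away from ends. The widest 3 members touched Dmrt1 and Dmrt3 (8190 bp), Cdk11b, Mmp23 and Mib2 (8102 bp), and Zfp36l1 and a predicted gene, Gm52006 (8093 bp).

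The member at Dmrt1 and Dmrt3 (19:25603885-25612074) had the opposite strand order. Both genes encode DM-domain transcription factors, and Dmrt1 acts in spermatogonia and Sertoli cells. The peak held 244 fragments, and its polarity was 41.8% (95% exact interval 35.5 to 48.3). Its minus-strand median minus its plus-strand median was -1530.5 bp, so the minus strand lay to the left. One other member, at Rbm12b2 and Tmem67 on chromosome 4, also had an interval under 50% (38.4%, 28.1 to 49.5, 86 fragments). Only 4 of all 17731 peaks had such an interval. Whether these intervals hold more than 1 break site was not tested.

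Gene strand was known for 2520 of the 3000 member genes, and by strand the members fell into arrangements that differed in fragments. In 737 members the genes ran apart from adjacent 5′ ends (divergent), and in 335 a 3′ end lay beside a 5′ end. In 27 the genes ran toward each other with both 3′ ends at the peak (convergent), 19 had other orders, 67 touched 3 or more genes, and 355 held a gene of unknown strand. The median was 46 fragments at divergent members, 28 where a 3′ end lay beside a 5′ end and 14 at convergent members. Median widths fell in the same order (2397, 2015 and 1613 bp), and the part of width in the fragments was not tested. Divergent members made up 179 of the 301 members in the top 10% of all peaks (24.3% of the divergent), against 49 with a 3′ end beside a 5′ end (14.6%) and 0 of 27 convergent members. Pooled polarity was 79.2%, 79.6% and 72.5% in the 3 arrangements.

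Among the members with most fragments were Arid2, a chromatin remodelling subunit, with the predicted Gm38469 (414 fragments, 95% exact Poisson interval 375 to 456, chromosome 15), and Hmmr, a spindle protein, with Nudcd2 (391, chromosome 11). Srsf7, a splicing factor, with Gemin6 of the SMN complex had 343. H2az1, which encodes a histone variant, and Dnajb14 had 314 and were the richest member with a 3′ end beside a 5′ end. Others of the richest members were Stard6 with 4930503L19Rik (316), 1110059E24Rik with Abhd17b (284), Dbf4, the activator of the CDC7 kinase, with Slc25a40 (281), and Ndufb1 with Cpsf2 (276).

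At the other end, the member at Trpc2 and Xndc1 had 3 fragments (0.619 to 8.77), and those at Chrnb1 and Fgf11 and at Pimreg and Aipl1 had 4 each. The richest convergent member, at Duox1 and Shf, had 86 fragments and a polarity of 87.2%. The members nearest to the limit had their second gene 994 bp (Tmbim4 and Llph, 71 fragments) and 993 bp away (St3gal3 and Kdm4a, 17 fragments). The first peaks outside it were at 1004 bp (0610040J01Rik and Nwd2) and 1006 bp (Slc6a16 and Cd37).

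At divergent members the position of the strands was compared with that of the start-site pair. The rule itself places the peak within 1000 bp of both genes, so closeness to the pair is partly set by it. The gap between the 5′ ends had a median of 40 bp (quartiles -173 and 146, where a negative gap means that the genes overlap). The strand centre is the mean of the plus-strand and minus-strand medians. Its signed offset along the chromosome from the midpoint of the 5′ ends had a median of 5.25 bp (quartiles -222 and 214). Offsets to the left and right cancel in that median, and the median distance without sign was 217 bp. The strand centre was within 250 bp of the midpoint in 409 of the 737 (55.5%) and beyond 500 bp in 126 (17.1%).

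Polarity was lower at gaps of 250 bp or more. About the peak midpoint it was 80.2% in 273 members with overlapping genes, 80.0% in 343 with a gap of 0 to under 250 bp, 76.3% in 88 with 250 to under 1000 bp and 69.5% in 33 with 1000 bp or more (67.3 to 71.5). About the midpoint of the 5′ ends, the widest gaps gave 59.4%, and with each fragment read against its nearer 5′ end they gave 72.5%. In the 3 other gap classes the nearer end gave 74.2%, 78.8% and 73.3%, against 77.8%, 78.7% and 73.4% about the midpoint of the ends. In the widest gaps 45.7% of the fragments lay between the ends, and 50.4% of those were on the plus strand. The peaks at wider gaps were also wider: median widths were 2331, 2385, 2649 and 2644 bp, from overlapping genes to the widest gaps. Overlapping genes had gaps down to -3688 bp, so their 5′ ends are not always close. The part of width in these polarities was not tested.

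**Figure D3:**
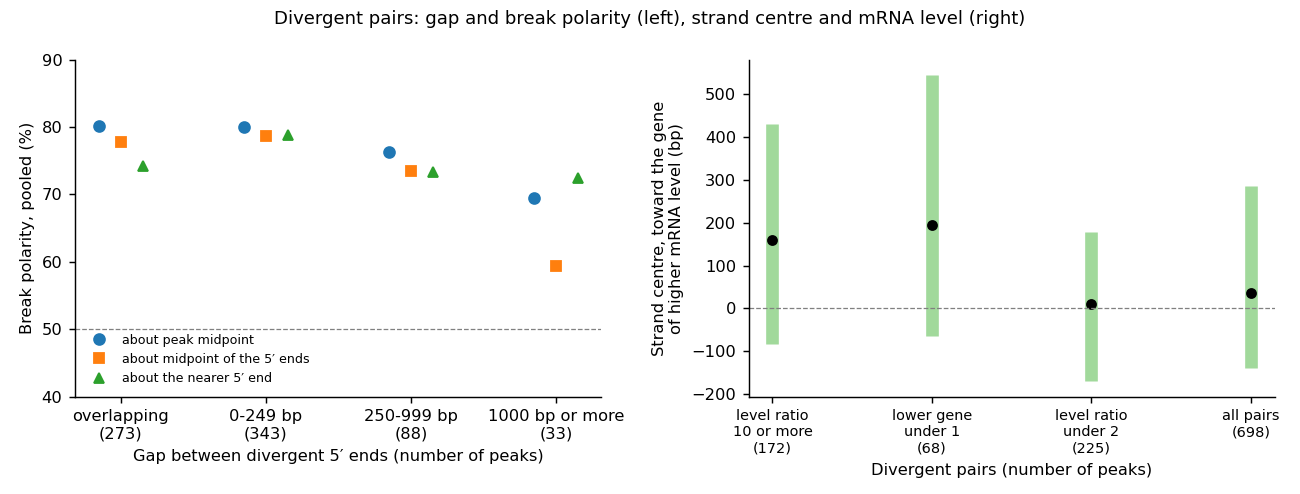
Left: pooled break polarity (%, axis from 40 to 90) about 3 centres for divergent members by gap between the 5′ ends, with 50% as a dashed line; at gaps of 1000 bp or more it is 59.4% about the midpoint of the ends and 72.5% about the nearer end. Right: offset of the strand centre in bp in the direction of transcription of the gene of higher mRNA level in Prdm9 KO, overlapping pairs included (points: medians, bars: quartiles over peaks), 160 bp at level ratios of 10 or more and 11.1 bp at ratios under 2.

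The annotation holds 903 divergent coding pairs of known strand whose 5′ ends lie within 1000 bp of each other, and 708 of them (78.4%) had a peak within 1000 bp of both ends. Counted by gene, 1408 of 1795 genes in such pairs (78.4%) had a peak at the 5′ end, against 6277 of 15697 other coding genes of known strand (39.99%). The shares also stood apart at like mRNA levels. Among genes with a mean level of 10 to 50 in Prdm9 KO (level is the authors' abundance value, which is per transcript length), 81.3% of the paired genes and 68.4% of the others had a peak. From 50 up the shares were 78.9% and 68.2%, from 1 to 10 they were 82.3% and 46.0%, and under 1 they were 55.4% and 11.2%. By pair, 7 of 22 pairs in which both genes were under 1 had a peak (31.8%), against 79.1%, 83.5% and 78.3% where the higher gene was at 1 to 10, 10 to 50 and 50 or more. A gene with a close neighbour has the neighbour's start in range as well, and the part of this in the shares was not tested.

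Most member genes were expressed in every testis library. Of the 3000, 2867 were matched to the mRNA table, 94 of them by a synonym, and 2556 had a level of at least 1 in all 5 libraries while 88 were below 1 in all. Median levels were 20.2 and 19.9 in the Prdm9 KO libraries, 20.5 and 20.6 in the Hop2 KO libraries and 29.8 in the wild-type one. These are values as deposited, and the columns sum to 825459 to 953598 in the knockouts and to 1622660 in wild type. A difference in level between knockouts and wild type therefore depends on the scale of the columns. Genes at peaks with 1 coding gene had 16.9 to 18.3 in the knockouts and 18.2 in wild type, and coding genes with no peak had 0.257 to 0.313 in the knockouts and 1.17 in wild type. In 1366 peaks with both genes matched, both were at 1 or more in 85.2% in Prdm9 KO, 85.1% in Hop2 KO and 91.9% in wild type. At divergent members the shares were 89.0%, 89.1% and 94.7%.

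**Figure D4:**
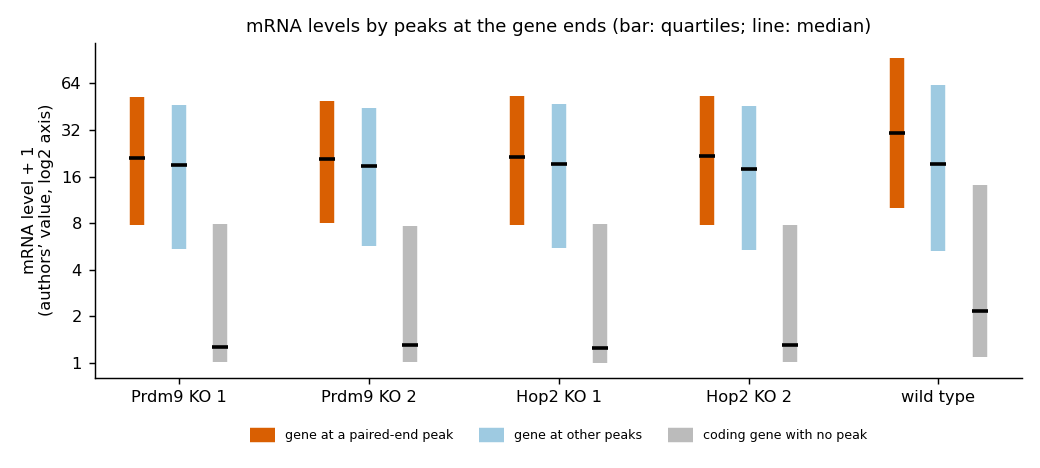
mRNA level plus 1 on a log2 axis in each testis library for genes at member peaks, genes at other peaks with 1 coding gene, and coding genes with no peak. Bars run between quartiles over genes and lines are medians; the member median is 19.9 to 20.6 in the 4 knockout libraries and 29.8 in wild type. Values are as deposited, with column sums of 825459 to 953598 in the knockouts and 1622660 in wild type.

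The number of fragments hardly followed expression among members. Where the higher-expressed gene of the pair was under 1 in Prdm9 KO, the median was 12 fragments (25 peaks). At 1 to 10 it was 36.5, at 10 to 50 it was 42, at 50 to 200 it was 35 and from 200 up it was 37. Spearman's rho between fragments and the level of the higher gene was -0.02 over 1366 peaks, which all share 1 SSDS library and the same mRNA libraries. The level of the higher gene and that of the lower gene of the pair had a rho of 0.53. Sorting each pair into higher and lower raises this value by itself, so it does not show that paired genes have like levels.

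In divergent members with unequal genes, the break signal leaned in the direction in which the more expressed gene is transcribed. The offset was taken from the midpoint of the 5′ ends, and pairs of overlapping genes were included. In overlapping pairs the side toward which a gene is transcribed holds the start of the other gene. Where levels in Prdm9 KO differed at least 10 times, the strand centre lay on the side toward which the higher gene is transcribed in 112 of 172 peaks (65.1%), by a median of 160 bp (quartiles -83.8 and 431). Where they differed less than 2 times it did so in 116 of 225 (51.6%), by a median of 11.1 bp. Where the lower gene was under 1 and the higher at least 1, it did so in 49 of 68, by a median of 194 bp. Over all 698 pairs the count was 389 (55.7%) and the median 36.2 bp. Peaks share the library, and the difference between these sets was not tested.

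Marker levels of several testis cell types differed between the knockouts and wild type. Prdm9 KO and Hop2 KO germ cells are known to arrest in meiotic prophase. Of 56 genes of late pachytene cells and spermatids, all 56 were called lower in either knockout, and their summed level was 381 to 427 in Prdm9 KO and 395 to 425 in Hop2 KO, against 173512 in wild type. Prm2, Prm3, Catsper1, Catsper4, Spaca3, Hils1, Cabs1 and Actl7b were listed at 0 in at least 1 knockout library. Sertoli markers summed to 10680 to 10730 in Prdm9 KO and 9954 to 13800 in Hop2 KO, against 2330 in wild type, with 16 of 18 tested called higher and 0 lower in both comparisons. Leydig markers summed to 39104 to 56850 and 28965 to 81996, against 7056. Beside these calls, 34.6% of all genes were higher and 39.4% lower in Prdm9 KO, and 35.0% and 39.5% in Hop2 KO. The sums depend on the scale of the columns, whose totals are given above. In bulk tissue, fewer cells of a type and less RNA per cell cannot be told apart, and the part of cell content in the changes below was not tested.

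Prdm9 itself had levels of 4.73 and 5.93 in Prdm9 KO and of 10.7 and 15.03 in Hop2 KO, against 6.20 in wild type. The labels do not say which part of the gene is deleted, so a level over the whole gene does not check them. The gene disrupted in Hop2 KO, Psmc3ip, encodes the HOP2 partner of DMC1 and is a member gene: its 5′ end lay at a peak of 8 fragments shared with Retreg3. It had levels of 22.8 and 26.4 in Prdm9 KO and of 3.51 and 5.06 in Hop2 KO, against 197 in wild type. The Hop2 KO libraries were thus the lowest, and wild type was above all knockouts. The log2 change on the scale of level plus 1 was -5.24 ± 0.24 (SE) in Hop2 KO against wild type (limma, adjusted p = 0.000391) and -2.96 ± 0.24 in Prdm9 KO (limma, adjusted p = 0.00161).

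Against wild type, 807 of 2738 member genes tested were higher in Prdm9 KO (29.5%, with 34.6% of all genes called higher) and 1169 lower (42.7%, with 39.4% of all genes), by limma at an adjusted p of 0.05. The median log2 change was -0.28, against -0.08 over all genes. In Hop2 KO 841 were higher (30.7%, with 35.0% of all genes) and 1164 lower (42.5%, with 39.5% of all genes), with medians of -0.20 and -0.06. At peaks with 1 coding gene 39.1% were higher and 34.6% lower in Prdm9 KO. The comparisons share the single wild-type library, and the shares depend on the scale of the columns. Where columns were rescaled to the same sum, the median of all genes moved to 0.77 for Prdm9 KO and to 0.68 for Hop2 KO, with 66.0% and 63.8% of the member calls higher, against 40.8% and 41.9% with the values as deposited. Quantile normalization gave medians of 0.58 and 0.59, and 60.6% and 61.2% higher. Of all genes called, 46.8% and 47.0% were higher with the values as deposited, 66.0% and 64.03% with rescaled columns and 61.8% and 61.5% with quantile normalization.

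Between the knockouts, 0 of 2631 member genes were higher in Prdm9 KO than in Hop2 KO (0.0139% of all genes were called) and 0 were lower (0% of all genes) by limma, and 67 had an unadjusted p under 0.05 (2.55%, with 3.10% of all genes). That count was 14 without Prdm9 KO replicate 2, 21 without Hop2 KO replicate 2 and 229 with the replicate block. Psmc3ip had a log2 difference of 2.29 ± 0.19 (limma, adjusted p = 0.205 over 4 libraries). With the replicate number of the titles as a block it was the 1 member called (limma, adjusted p = 0.0159).

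The genes of a pair moved in the same direction at some peaks and in opposite directions at others. Of 1259 peaks with both genes tested in Prdm9 KO against wild type, both were higher at 147, both lower at 273 and 1 each way at 244. At 186 only 1 was called and was higher, at 304 only 1 was called and was lower, and at 105 neither was called. In Hop2 KO the counts were 150, 274, 252, 197, 292 and 94. Where both genes were called, 420 of 664 pairs moved the same way in Prdm9 KO and 424 of 676 in Hop2 KO, and among divergent pairs 236 of 350 and 235 of 360. No value for unpaired genes was computed. H2az1 was at 512 and 290 in Prdm9 KO and 444 and 404 in Hop2 KO, against 495 in wild type, and did not pass the test. Its partner Dnajb14 was at 7.02 and 7.98 in Prdm9 KO and 8.21 and 6.89 in Hop2 KO, against 258 in wild type (log2 change -4.93 ± 0.17 in either knockout; limma, adjusted p = 0.000196).

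Of 107 genes on a list of DNA repair and replication genes, 42 (39.3%) were member genes, beside 13.7% of all coding genes. Peaks with 1 coding gene held 43 of the list, beside 6876 of the 21013 coding genes matched to the mRNA values. In Prdm9 KO replicate 1, 106 of the 107 list genes were at 1 or more. At that level were 2610 member genes, 5946 genes at peaks with 1 coding gene and 4495 coding genes with no peak. The part of expression in the 39.3% was not tested. Compared with wild type, 9 of the 42 member genes were higher and 23 lower in Prdm9 KO, and 9 and 25 in Hop2 KO, with medians of -0.75 and -0.86, against -0.08 and -0.06 over all genes tested. Of all genes, 34.6% were higher and 39.4% lower in Prdm9 KO, and 35.0% and 39.5% in Hop2 KO, shares against which the counts of each list below are also to be read. With rescaled columns 51.7% of all genes were higher and 26.6% lower in Prdm9 KO, and 49.7% and 27.9% in Hop2 KO. With that scaling the counts of the list were 13 higher and 10 lower in Prdm9 KO and 12 and 12 in Hop2 KO, so the surplus of lower genes was not kept under that scaling. Without either Prdm9 KO library 4 were higher and 20 lower in Prdm9 KO.

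Single genes of the list changed both ways. Xrcc1, a scaffold of single-strand break repair that shares its peak with Pinlyp, was at 23.4 and 24.2 in Prdm9 KO and 23.5 and 25.8 in Hop2 KO, against 129 in wild type (log2 change -2.39 ± 0.11 in Prdm9 KO; limma, adjusted p = 0.000409). Rpa1, the large subunit of the single-strand binding protein RPA, was at 61.4 and 56.3 in Prdm9 KO and 57.7 and 56.8 in Hop2 KO, against 278 in wild type. Rpa3, its small subunit, was at 16.9 and 19.9 in Prdm9 KO and 20.7 and 22.7 in Hop2 KO, against 7.37 in wild type. The RPA subunits thus moved in opposite directions, with log2 changes of -2.22 ± 0.10 for Rpa1 and 1.21 ± 0.17 for Rpa3 in Prdm9 KO (limma, adjusted p = 0.000379 and 0.00602). The peak of Rpa3 and Umad1, whose gap is printed above, held 269 fragments, and that of Rpa1 and Smyd4 held 67.

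Xrcc4, a cofactor of ligase IV in end joining, was at 7.41 and 7.24 in Prdm9 KO and 7.92 and 7.94 in Hop2 KO, against 35.5 in wild type. Lig4, the ligase itself, was at 3.78 and 3.52 in Prdm9 KO and 3.96 and 3.44 in Hop2 KO, against 15.6 in wild type. Both end-joining genes were lower in all knockout libraries, with log2 changes of -2.13 ± 0.14 and -1.83 ± 0.15 in Prdm9 KO (limma, adjusted p = 0.000865 and 0.00167). The kinase gene Atm, at the gap shared with Npat, was at 9.59 and 10.6 in Prdm9 KO and 8.49 and 10.8 in Hop2 KO, against 5.26 in wild type (log2 change 0.82 ± 0.21 in Prdm9 KO; limma, adjusted p = 0.0301), a call lost without either Prdm9 KO library (0.89 and 0.76). Ung, the uracil-DNA glycosylase, was at 38.5 and 37.8 in Prdm9 KO and 38.5 and 38.4 in Hop2 KO, against 10.6 in wild type, and was likewise higher. Brca1, which starts 151 bp from Nbr1 at a peak of 28 fragments, was at 6.70 and 8.03 in Prdm9 KO and 6.16 and 6.29 in Hop2 KO, against 6.77 in wild type. Its Prdm9 KO values lay on both sides of wild type and its Hop2 KO values below it, and neither comparison passed the test.

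Of 44 annotated genes on a list of meiotic prophase genes, 14 were at member peaks (31.8%). In Prdm9 KO 2 of them, Zcwpw1 and Trip13, were higher (34.6% of all genes) and 8 were lower than in wild type (39.4% of all genes). In Hop2 KO 2 were higher (35.0% of all genes) and 7 lower (39.5%), and these 7 include Psmc3ip, the gene disrupted there. Zcwpw1, a reader of the histone marks that PRDM9 makes, was at 46.0 and 51.7 in Prdm9 KO and 42.8 and 58.2 in Hop2 KO, against 22.6 in wild type, and its peak with Mepce held 215 fragments. Trip13, an ATPase that remodels HORMA-domain proteins, was at 15.6 and 14.4 in Prdm9 KO and 16.7 and 15.6 in Hop2 KO, against 8.84 in wild type. With either Prdm9 KO library left out neither passed in Prdm9 KO, and with rescaled columns the counts were 4 higher and 4 lower. Smc1b, a meiotic cohesin subunit, was at 27.4 and 24.5 in Prdm9 KO and 26.3 and 28.6 in Hop2 KO, against 66.5 in wild type, and its peak held 9 fragments. Msh4, a MutS homologue of crossover formation, was at 4.55 and 6.00 in Prdm9 KO and 4.73 and 5.17 in Hop2 KO, against 14.8 in wild type, and was lower in both, though neither call held with rescaled columns. Hormad1, an axis protein, was at 59.3 and 63.5 in Prdm9 KO and 75.9 and 56.4 in Hop2 KO, against 45.2 in wild type, and did not pass the test. Of the 50 genes named on the meiotic list, 39 were found by symbol among the mRNA values. Their levels summed to 1437 to 1580 in Prdm9 KO and 1419 to 1462 in Hop2 KO, against 5018 in wild type. That sum follows the most abundant genes and depends on the scale of the columns. Of the 39, 9 were called higher and 18 lower in Prdm9 KO, and 8 and 18 in Hop2 KO.

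**Figure D5:**
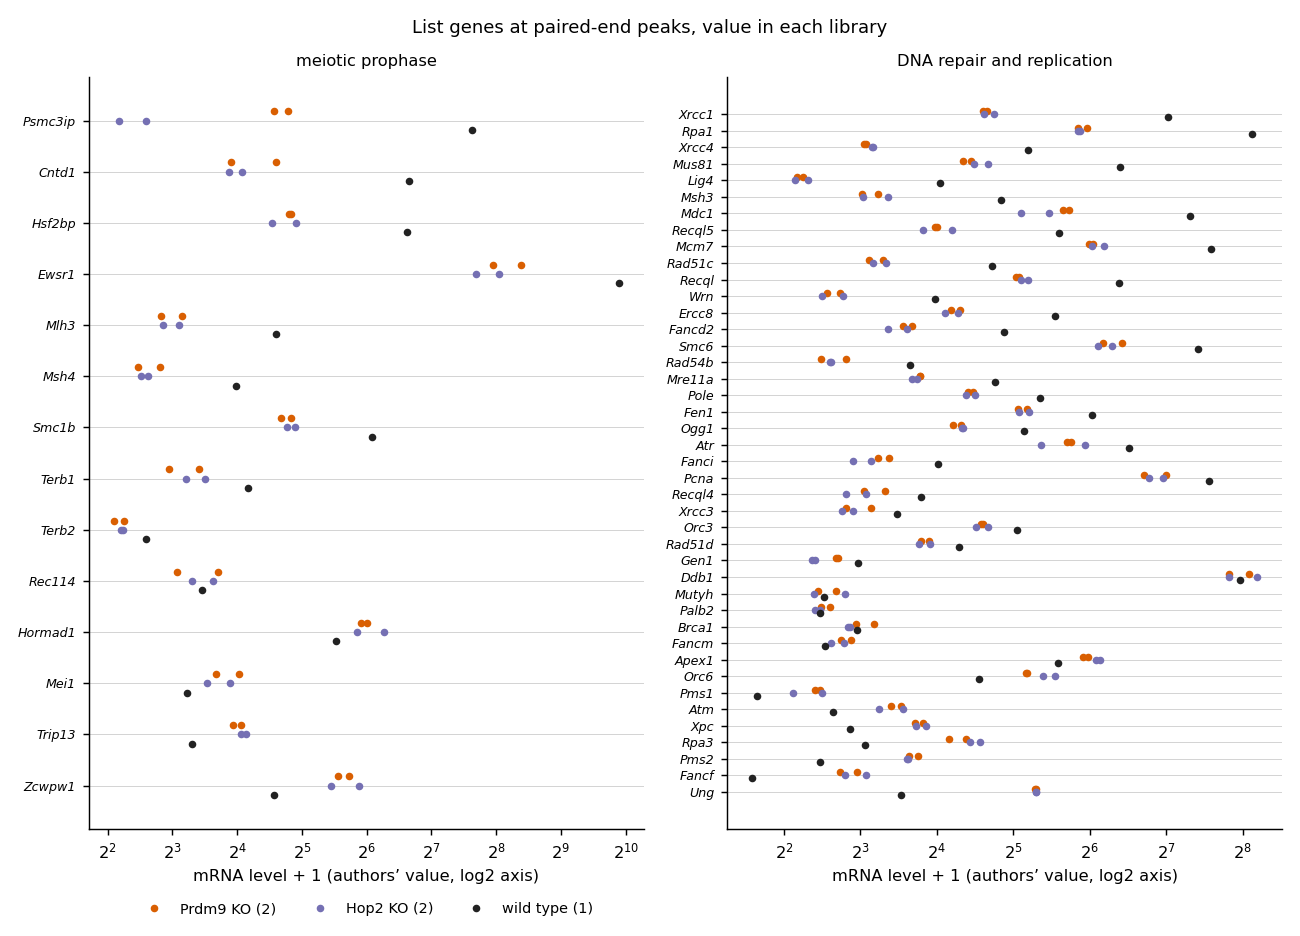
mRNA level plus 1 (log2 axis) in each of the 5 testis libraries for the 14 meiotic prophase genes and 42 DNA repair and replication genes at member peaks, in order of the log2 change in Prdm9 KO. In most genes the 4 knockout libraries lie together and to the left of wild type. Ung, Fancf, Pms2, Rpa3, Zcwpw1 and Trip13 are among the genes in which they lie to the right of it.

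Genes of the mitochondrial ribosome and respiratory chain were at member peaks in 57 of 160 cases (35.6%), cytosolic ribosome genes in 20 of 81 (24.7%) and proteasome genes in 8 of 39 (20.5%), beside 13.7% of all coding genes. Peaks with 1 coding gene held 62, 39 and 24 genes of these lists, beside 6876 of the 21013 coding genes matched to the mRNA values. No test was made of the shares, nor of whether these lists favour paired ends over peaks at gene ends in general. The 13.7% counts silent genes too, which seldom have a peak. Among matched coding genes at 1 or more in Prdm9 KO replicate 1, 2610 were member genes, 5946 were at peaks with 1 coding gene and 4495 had no peak. The part of expression in the list shares was not tested. Of 54 tested mitochondrial genes, 19 were higher in Prdm9 KO, near the 34.6% of all genes, and 13 were lower (39.4% of all genes). In Hop2 KO 26 were higher and 9 lower (35.0% and 39.5% of all genes). With rescaled columns they were 42 and 1, and 42 and 0. Leaving out 1 library gave 13 to 16 higher in Prdm9 KO, and without a Hop2 KO library 15 and 17 were higher and 4 and 3 lower in Hop2 KO. Of 20 cytosolic ribosome genes 4 were higher and 1 lower in Prdm9 KO, while 5 were higher and 0 lower in Hop2 KO, both below the shares of all genes in either direction. With rescaled columns these counts were 15 and 0, and 16 and 0. Leaving out 1 library gave 1 to 3 higher in Prdm9 KO, and 3 without either Hop2 KO library in Hop2 KO. Of the 8 proteasome genes 3 were higher and 3 lower in Prdm9 KO, and 4 and 2 in Hop2 KO. Psmc2, a proteasome ATPase, shares a peak of 215 fragments with Dnajc2 and was at 88.1 and 84.1 in Prdm9 KO and 98.9 and 102 in Hop2 KO, against 474 in wild type. Rpl35 was at 350 and 276 in Prdm9 KO and 408 and 370 in Hop2 KO, against 319 in wild type, with 221 fragments at its peak.

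Late germ cell genes were at members near their share among all coding genes: 9 of 56 (16.1%), and 3 of 22 piRNA pathway genes (13.6%). All 9 were lower in both knockouts, with a median log2 change of -8.14 in Prdm9 KO and -8.06 in Hop2 KO. Tnp2, a transition protein of condensing spermatid chromatin, was at 0.184 and 0.815 in Prdm9 KO and 0.0457 and 6.97 in Hop2 KO, against 27036 in wild type. Gapdhs, the sperm glycolytic isozyme, was at 5.01 and 4.83 in Prdm9 KO and 4.94 and 7.35 in Hop2 KO, against 6331 in wild type. The peaks of the 9 genes held 6 (Calr3) to 127 fragments (Catsper2, with Pdia3), with 98 at Zpbp, 64 at Tnp2 and 8 at Gapdhs. Rnf151, Nt5c1b, Dbil5 and Tsks completed the 6 member genes with the largest falls in either knockout, after Tnp2 (-14.17) and Gapdhs (-10.06), with log2 changes of -9.97, -9.90, -9.85 and -9.55 in Prdm9 KO.

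The largest rises among member genes in Prdm9 KO were those of Pdf, a mitochondrial peptide deformylase, at 3.24 ± 0.18 on the log2 scale, Mpnd (3.14 ± 0.15), the tetraspanin gene Tspan4 (3.08 ± 0.15), Rnase4 (2.97 ± 0.43), Mmp23 (2.96 ± 0.48) and the amino acid transporter gene Slc7a8 (2.89 ± 0.13). Pdf was at 20.03 and 19.9 in Prdm9 KO and 19.4 and 23.8 in Hop2 KO, against 1.22 in wild type. Rnase4 and Ang share their annotated start, so the counting could split their reads. In Hop2 KO Fcgrt and Rcn3, which share a peak of 16 fragments, had 3.34 each.

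Few markers of other testis cells were at member peaks: Dhh of 20 Sertoli genes, 0 of 15 Leydig genes, Cd68 of 18 macrophage genes, 0 of 10 endothelial genes and Dmrt1 of 18 spermatogonial genes. All 3 were higher in both knockouts, although the call of Cd68 in Hop2 KO was lost without Hop2 KO replicate 1 (log2 change 2.25). Dmrt1 was at 117 and 92.7 in Prdm9 KO and 120 and 93.9 in Hop2 KO, against 28.1 in wild type, and its neighbour Dmrt3 at 1.43 and 1.40 in Prdm9 KO and 1.39 and 1.58 in Hop2 KO, against 4.37 in wild type. Macrophage markers as a whole summed to 905 to 1366 in Prdm9 KO and 1210 to 1462 in Hop2 KO, against 958 in wild type, with 16 of 18 called higher and 2 lower in Prdm9 KO and 15 and 2 in Hop2 KO. Endothelial markers summed to 72.5 to 77.3 and 76.1 to 81.4, against 38.0, with 6 of 10 higher and 1 lower in Prdm9 KO and 7 and 1 in Hop2 KO. Spermatogonial markers summed to 815 to 952 and 920 to 924, against 1674. Of 17 spermatogonial markers tested, 13 were called higher and 2 lower in Prdm9 KO, and 13 and 3 in Hop2 KO. The sums of these lists depend on the scale of the columns, which total 825459 to 953598 in the knockouts and 1622660 in wild type.

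Members were spread over all autosomes and X. They made up 15.7% of the peaks of chromosome 7 (145 peaks), 13.9% of those of chromosome 11 and 12.5% of those of chromosome 17, and 4.01% of those of chromosome 10 and 3.34% of those of chromosome 18 (24 peaks). The 45 members on X had a median of 41 fragments and a pooled polarity of 81.5%, and the 1495 autosomal ones had 38 fragments and 78.7%.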

How the data were processed

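SSDS fragments and peaks of 1 Prdm9 K/K testis library and mRNA values of 5 testis libraries were used. Per the submitters' processing notes, CASAVA and MACS2 2.1.0.20150420 were used for SSDS, and CASAVA, kallisto and sleuth for mRNA, with builds GRCm38 and mm10. For the aligner, peak threshold, control and other versions, nothing was given in the sources used here. The deposited peaks carry no score. The deposited mRNA values are a signal that the authors call TPM, but the columns sum to 825459 to 1622660, so they keep no read depth and their depth is unknown. Columns of per-sample values left unused numbered 0.

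Fragments were counted once per position and strand and assigned by midpoint. Gene strand came from the RefSeq promoter table (17492 of 21887 coding genes), so pairs of unknown strand could not be ordered, and its windows were used where they begin at the outermost gene start (10583). Levels were compared with limma 3.58.1 (R 4.3.3) on log2(value + 1), with a mean of at least 1, an intensity trend and Benjamini-Hochberg adjustment over all genes tested. A fold change on that scale understates the change of low genes. Wild type has 1 library, so the spread came from the knockouts. The fit was tested on simulated data. P-values measure the spread between libraries, which may be technical.

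Peaks were named for most fragments (10), fewest, greatest width, each arrangement and nearness to the limit. Some peaks and genes that this rule names are not reported here. Genes were named at these peaks, on the lists, or as the 6 largest changes a direction. Members and lists were chosen with earlier results of these data known. The expansion of the ribosomal, respiratory and proteasome lists, the DNA repair gaps printed, the polarity about each 5′ end, the share of 5′ ends with a peak and the list genes given in full were chosen after values were seen. Genes that overlap or share a start may have their reads split.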

Additional observations from a re-analysis of the deposited data

How the results depend on the processing

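The number of members was 803 with 5′ ends only and 1017 among the upper 50% of peaks by fragment density, used because the peaks carry no score. Their median width was 2157 bp at a limit of 2000 bp, 2391 bp with 5′ ends only and 2547 bp in the denser peaks, and the median fragments were 46 with 5′ ends only, 61 in the denser peaks and 129.5 with all deposited fragments. Pooled polarity was 79.0% at 2000 bp, 79.1% in the denser peaks, 79.5% with distances from the peak midpoint (chosen after seeing the data), 79.6% with all deposited fragments and 76.4% within 1000 bp of the midpoint. Why these values moved was not tested.

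Member genes higher in Prdm9 KO numbered 1290 with quantile normalization and 1388 with rescaled columns (716 lower with rescaled columns), and in Hop2 KO 1300 and 1332 (757 lower). Leaving out 1 library each gave 573 to 736 higher and 1009 to 1135 lower in Prdm9 KO, 694 to 732 and 1032 to 1058 in Hop2 KO, and 0 to 0 between the knockouts. The replicate block, from the numbers in the titles, gave 1 member higher between the knockouts, Psmc3ip. Samples with the same number deviated together (correlation 0.42 over 16261 genes), but with 2 pairs and no label saying what the number marks, they share only a number.

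Of 196 changes of single genes past the threshold, 126 kept their direction and call in every alternative. With rescaled columns these turned positive in Prdm9 KO: Nudcd2 (0.47), Tmbim4 (0.10), Mib2 (0.15), Fen1 (0.0054), Ogg1 (0.014), Pcna (0.22), Fanci (0.14) and Orc3 (0.44), and in Hop2 KO Rspry1 (0.037), Tmbim4 (0.14), Mib2 (0.089), Pcna (0.11), Gen1 (0.092) and Orc3 (0.32). With quantile normalization so did Nudcd2 (0.090), Tmbim4 (0.39), Pcna (0.40) and Orc3 (0.027) in Prdm9 KO, and Tmbim4 (0.42), Pcna (0.32), Gen1 (0.0026) and Orc3 (0.012) in Hop2 KO.

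With 1 SSDS library no class difference has a replicate check, and peaks with few fragments leave polarity wide open: 1168 of 1540 members had an interval wholly above 50%.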
